A study of Drosophila melanogaster with 4 samples.

Results

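The 10 cuticle protein genes among the 244 genes of the authors' deposited table are described here: Cpr62Ba, Cpr51A, Cpr67Fb, Cpr67Fa2, Cpr78Ca, Cpr65Av, Lcp1, Lcp2, the pseudogene Lcp65APsi and TwdlT. They were taken by gene identifier as the loci of cuticle protein families, and all 10 identifiers matched a RefSeq gene. The study asked how the airway epithelium of fly larvae responds when the immune deficiency (IMD) pathway, an antibacterial signalling route, is turned on without infection. RNA came from dissected tracheae of Drosophila melanogaster third-instar larvae, aged about 10 days and raised at 22 °C, with 20 pairs of tracheae pooled per extraction. One group was the F1 progeny of the driver strain NP2610 crossed to UAS-PGRP-LE, so that GAL4 made in the tracheal system turned on PGRP-LE, a peptidoglycan receptor that starts the pathway. The control was the driver strain NP2610 itself, without the transgene. Both carry the driver, but only the first is a cross with another strain, and the labels do not give the number of driver copies in either. Genetic background and PGRP-LE therefore cannot be told apart. The labels describe the driver line as specific for the larval tracheal system.

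Both RNAs were hybridised to the same two-colour arrays, 4 in all, named in the labels as 2 biological replicates with 1 technical replicate each. For each gene the authors' deposited table gives 1 mean log2 ratio pooled over the arrays, its standard deviation (SD) over array spots and the number of valid spots. "Higher" and "lower" below mean a positive or a negative ratio, read as the PGRP-LE cross over the driver. That reading is likely but not stated: channel 1 and the name of the hybridisation group both refer to the cross. Of a reference list of 20 immune genes, 9 are in the authors' deposited table. All 9 were positive, against 76.6% of its 244 genes. PGRP-LE itself is on that list but not in the authors' deposited table, so its own ratio could not be read. The values for single arrays are listed by spot number, 32448 spots per array, and no table used here pairs the spots with genes, so no cuticle gene has a value per array or per replicate. The scale of those spot values is not stated. Their array medians ran from -0.41 to 0.98, and Pearson's r between arrays over all spots of the shared design ran from -0.09 to 0.11. The biological and technical arrays of replicate 1 had an r of -0.09, and those of replicate 2 an r of 0.01. Repeat arrays were thus no more alike than arrays of different replicates. No test of a single gene or of a difference between genes could be made, because spots of one array or one RNA are not independent replicates and no p-value is given per gene. The SD is the authors' spread over spots and covers array, dye and replicate together. The authors chose the 244 genes on these same arrays, so the ratios of the cuticle genes are a description and no independent evidence of a change.

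Insect airways are tubes of epithelium lined on the inner side with cuticle, a layer of chitin fibres and proteins that is shed and rebuilt at each moult. The largest family of insect cuticle proteins is the CPR family, which carries the chitin-binding Rebers-Riddiford domain and includes the genes named Cpr and the larval cuticle protein genes named Lcp. The Tweedle family is a separate group of insect cuticle proteins. Lcp1 and Lcp2 are best known from the larval body wall, and the arrays measured RNA in dissected tracheae, so the values do not show where any of these proteins ends up. In pooled tissue, fewer cells that make an RNA and less RNA per cell cannot be told apart.

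Among the 10 cuticle genes, 6 were higher and 4 were lower in the tracheae of the PGRP-LE cross. For comparison, 76.6% of the 244 genes listed by the authors' deposited table had a positive ratio and 23.4% a negative one. The median log2 ratio was 0.73 for the cuticle genes and 0.82 for the whole of the authors' deposited table. Among genes with a coefficient of variation (SD over the size of the mean) under 0.5, cuticle genes split into 2 higher and 3 lower. Their median of -0.66 is the ratio of TwdlT alone. Of all such genes of the authors' deposited table, 78.8% had a positive ratio. The cuticle genes ran from 1.94 in Cpr62Ba to -1.47 in Lcp1, almost the full span of the authors' deposited table, whose ends lie at 2.05 and -1.65. A log2 size of at least 1, a difference of 2-fold or more, was reached by 7 of the 10 cuticle genes against 38.9% of all genes in the authors' deposited table.

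**Figure D1:**
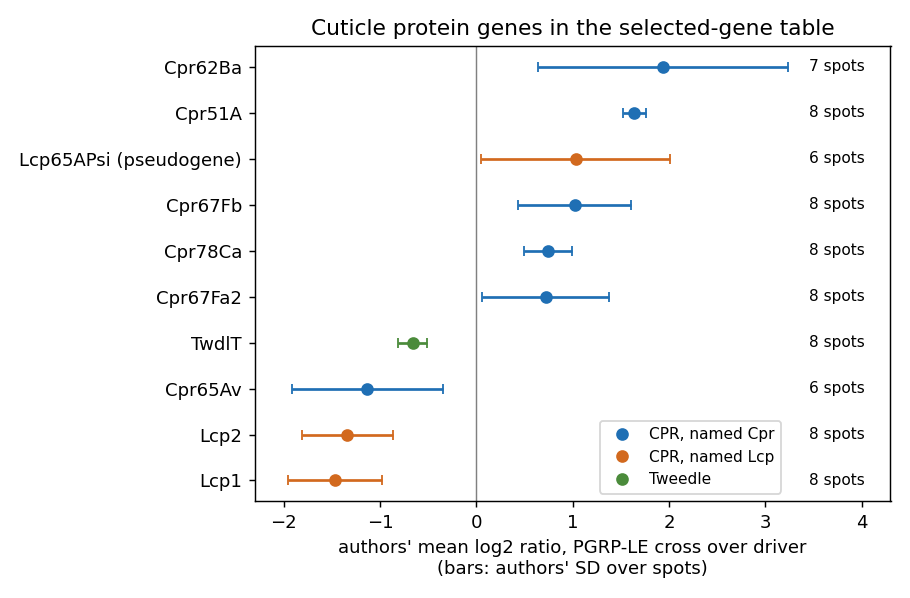
Authors' mean log2 ratio (x axis, PGRP-LE cross over driver) of each cuticle gene (y axis). Bars give the authors' SD over the number of spots printed at the right. Colours mark genes named Cpr, genes named Lcp and the Tweedle gene. The 6 higher genes lie between 0.72 and 1.94 and the 4 lower ones between -0.66 and -1.47.

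The highest of the cuticle genes was Cpr62Ba, a CPR gene that ranked 3 from the top of all 244 genes. Its mean log2 ratio in the authors' deposited table was 1.94, a 3.84-fold difference, over 7 spots. The spread was wide as well, with an authors' SD of 1.30, so that 1 SD around the mean reached from 0.64 to 3.24 in the authors' deposited table. Only 3 of the 244 genes had a larger SD.

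Cpr51A, a CPR gene without a neighbouring cuticle gene, had nearly the same size with very little spread. The authors' deposited table gave it a mean log2 ratio of 1.64, a 3.12-fold difference, with an SD of 0.12 from 8 spots. No other gene of the authors' deposited table had an SD as small. The means of Cpr62Ba and Cpr51A differed by 0.30, well under the SD of Cpr62Ba, so their order is not resolved.

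The other 4 higher genes were smaller. The pseudogene Lcp65APsi stood at 1.03 (authors' SD 0.98, 6 spots) and Cpr67Fb at 1.02 (authors' SD 0.59, 8 spots) in the authors' deposited table. Cpr78Ca followed at 0.74 with a narrow SD of 0.25, and Cpr67Fa2 at 0.72 with an SD of 0.66, each from 8 spots, again in the authors' deposited table. On the linear scale these 4 differences ran from 1.65-fold to 2.04-fold. For Lcp65APsi and Cpr67Fa2 the SD was almost as large as the mean, with coefficients of variation of 0.96 and 0.92 in the authors' deposited table. The largest coefficient of variation of any selected gene was 0.97, so both lie close to the edge of what was selected.

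The larval cuticle protein genes Lcp1 and Lcp2 were the lowest of the 10. In the authors' deposited table Lcp1 stood at -1.47 (authors' SD 0.49, 8 spots), a 2.77-fold lower ratio, and Lcp2 at -1.34 (authors' SD 0.47, 8 spots), a 2.53-fold lower ratio. They ranked 241 and 240 from the top of the 244 genes. The next in order was Cpr65Av, a CPR gene, at -1.13 from 6 spots, with a wider SD of 0.78 in the authors' deposited table. TwdlT, the single Tweedle gene, had the smallest size at -0.66, from 8 spots, with an SD of 0.15 in the authors' deposited table. Its SD was the smallest among the 57 lower genes, and its mean lay next to the edge of the selection, since the lower gene nearest to 0 in the authors' deposited table had a mean of -0.65. On the higher side the mean nearest to 0 was 0.59, and the cuticle gene closest to it was Cpr67Fa2 at 0.72. Values beyond these edges were not analysed here.

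**Figure D2:**
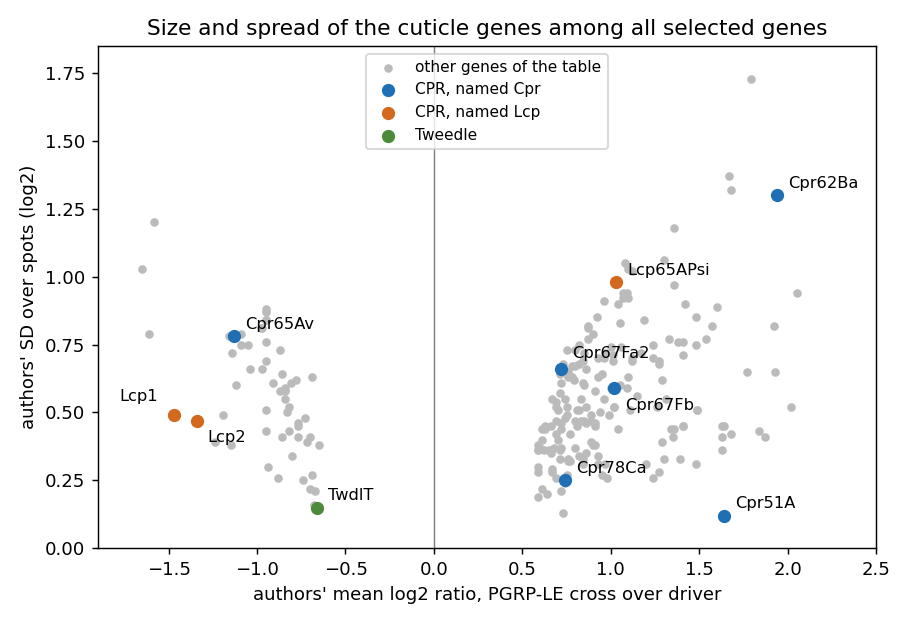
Authors' mean log2 ratio (x axis) against the authors' SD over spots on the log2 scale (y axis) for all 244 selected genes. The 10 cuticle genes are coloured by name (Cpr, Lcp or Tweedle) and the others are in grey. Cpr51A, at a mean of 1.64 and an SD of 0.12, and TwdlT, at -0.66 and 0.15, sit at the bottom of the cloud, while Cpr62Ba, at 1.94 and 1.30, sits near the top.

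Neighbours in the order of the 10 ratios are the closest pairs by construction, so small steps between them were largely set in advance. Of the 9 steps from one gene to the next, 1 was larger than the larger SD of its pair. That was the step of 1.38 across 0 from Cpr67Fa2 to TwdlT. It spans the gap from -0.65 to 0.59 that the selection left empty. Every gene of the authors' deposited table has a coefficient of variation below 1, so ranges of 1 SD on opposite sides of 0 never meet, and that separation is fixed by the selection. Among the 21 pairs on the same side, 4 had ranges of 1 SD that did not meet. These were Cpr51A against Cpr78Ca (a difference of 0.90) and against Cpr67Fa2 (0.92), and TwdlT against Lcp2 (0.68) and against Lcp1 (0.81). Cpr51A thus stood above the 2 smallest higher genes, and TwdlT nearer to 0 than both Lcp genes, by more than the summed SDs, a difference that no test could be run on.

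Cpr and Lcp are names within the CPR family, so genes were grouped here by symbol and not by subfamily. Of the 6 genes named Cpr, 5 were higher, all but Cpr65Av, with a median log2 ratio of 0.88. That is close to the 76.6% higher and the median of 0.82 over the authors' deposited table. Of the 3 genes named Lcp, both protein-coding ones were lower and the pseudogene was higher. The single Tweedle gene was lower. By chromosome arm, 5 of 6 genes on 3L were higher, again near that share. On 2R 1 of 3 was higher, and TwdlT, the only one on 3R, was lower. The file's own Gene Ontology text named cuticle for 5 genes of the authors' deposited table, namely Ddc and 4 of the 10 described here, Cpr62Ba, Cpr65Av, Lcp1 and Lcp2, of which the last 3 were lower. With 1 to 6 genes in each of these groups, the splits describe the list and were not tested.

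Cuticle protein genes of one family often lie side by side in the genome, and the selected genes were a small part of each family. RefSeq lists 100 genes whose symbols place them in the CPR family, 2 of them pseudogenes, and 9 of the 100 are in the authors' deposited table. For the Tweedle family it is 1 of 26 genes. None of 11 genes of the obstructor and peritrophin type, another class of chitin-binding cuticle proteins that includes Gasp, is in the table, and none of 4 Vajk genes. How many of these genes the arrays carried is not known here, so a gene outside the table has no value and may have changed or not. How large a share of all arrayed genes was selected is not known either, so these counts are not read as many or few. Places in gene order are given from RefSeq's annotation of Release 6, without coordinates, since no source used here names the build of the array's probes.

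The cluster in band 44D on arm 2R holds, in order, Lcp1, Lcp1Psi, Lcp2, Lcp3 and Lcp4. Lcp1 and Lcp2, with the pseudogene Lcp1Psi between them, were both lower, and their means in the authors' deposited table differed by 0.13, less than either SD. Lcp3 and Lcp4, the adjoining larval cuticle protein genes, are not in the table. Lcp1 and Lcp2 encode closely related proteins, and whether the array's probes separate the RNAs is not known.

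The cluster in band 65A on arm 3L is much larger, with 19 cuticle genes by symbol, and only Cpr65Av and Lcp65APsi of them are in the authors' deposited table. These 2 lay on opposite sides of 0, at -1.13 and 1.03, a difference of 2.16 on the log2 scale over 6 spots each. They are 6 places apart, separated by Cpr65Aw, Lcp65Ad, Lcp65Ac, Lcp65Ab2 and Cpr65Ax1. Both had wide SDs in the authors' deposited table, 0.78 and 0.98. Lcp65APsi lies between Cpr65Ax1 and Lcp65Ab1, and whether its probe separates it from these relatives is not known.

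In band 67F, also on 3L, both Cpr67Fa2 and Cpr67Fb were higher, and their means of 0.72 and 1.02 in the authors' deposited table differed by 0.30, less than either SD. An antisense RNA gene, asRNA:CR45171, lies between them. The remaining cuticle gene of that group, Cpr67Fa1, next to Cpr67Fa2 and close to it in name and kind, is not in the table, and whether the probes separate these copies is not known. Thus the 2 genes with a value had ratios of the same sign in 44D and in 67F and of opposite sign in 65A. That is 1 pair per band, in a list where 76.6% of ratios were positive, and was not tested.

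**Figure D3:**
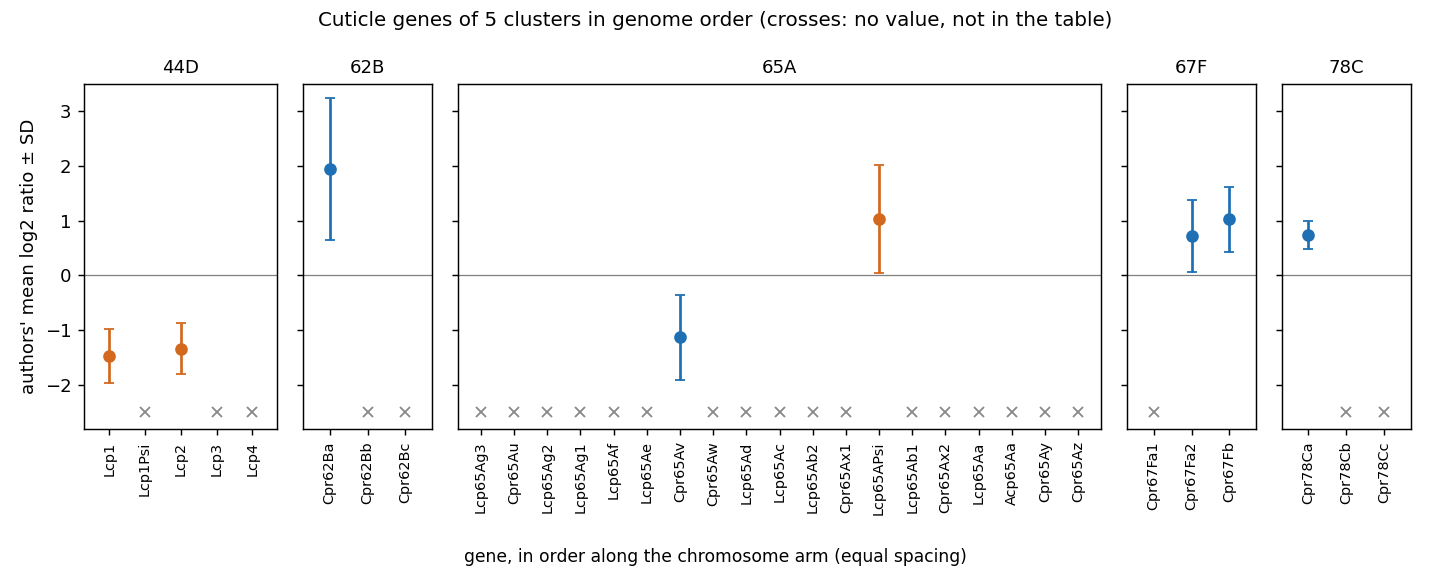
Cuticle genes of 5 clusters in their order along the chromosome arm (x axis, equal spacing), with the authors' mean log2 ratio and SD (y axis) for genes in the table (genes named Cpr in blue, Lcp in orange) and grey crosses at the bottom for genes with no value. Both valued genes lie below 0 in 44D and above 0 in 67F, while in 65A Cpr65Av lies at -1.13 and Lcp65APsi at 1.03.

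The remaining cuticle genes stood alone within their groups. Cpr62Ba lies first of 3 CPR genes in band 62B, beside Cpr62Bb, and Cpr78Ca first of 3 so named in band 78C, beside Cpr78Cb, and none of those neighbours is in the table. Cpr51A lies between Asx and CG30197, and TwdlT between CG6271 and Nep5, so neither adjoins a cuticle gene. For these 4, the nearest gene in the authors' deposited table was 11 to 88 places away. TwdlT differed in sign from that neighbour, CG46339 at 1.36 (authors' SD 0.44, 8 spots) in the authors' deposited table. The other 3 shared the sign of theirs, as 76.6% of the table is on that side.

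Other steps of cuticle building were looked up by symbol, and only symbols that RefSeq holds could be found. None of 31 such genes listed for chitin synthesis and turnover is in the authors' deposited table. The same holds for 13 such genes listed for apical matrix proteins, most of them with a zona pellucida domain. These lists are not pure, since nes on the first and trn and papi on the second belong to other classes of protein. Of 24 such genes of tanning and the outer barrier, 2 are, both higher. Ddc, which encodes dopa decarboxylase of the tanning pathway, stood at 1.92 (authors' SD 0.82, 8 spots) in the authors' deposited table, beside Cpr62Ba in size. The other is snu, at 0.68 (authors' SD 0.37, 6 spots) in the authors' deposited table, a gene for a transporter of the outer barrier. Of 19 such moulting and cuticle regulators the table held Hr39, a nuclear receptor gene, at -0.86 (authors' SD 0.64, 16 spots) in the authors' deposited table. Genes of these lists that were not selected have no value and may have changed or not. Since the share of all arrayed genes that was selected is not known, these counts are not read as many or few.

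Of 44 listed marker genes of other tissues that could come along in a dissection, 5 (11.4%) were in the authors' deposited table. These lists were chosen with earlier results of these data known, so that share is no background rate for the cuticle genes. One gene each was lower in the authors' deposited table from the lists for fat body (Lsp2 of 7 genes, -0.86), muscle (Mf of 7, -1.09), neurons (fne of 5, -0.95) and gut (Jon99Fi of 6, -1.58), the side of Lcp1, Lcp2, Cpr65Av and TwdlT. The blood cell marker atilla, 1 of 8, was higher at 0.74 in the authors' deposited table. No marker of salivary gland (6 genes), of imaginal epidermis (5 genes) or of the airway itself (8 genes) was in the table. A table of selected ratios holds no levels, so the labelled tissue could not be checked against its markers, and the part of other tissues in the cuticle ratios was not tested.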

How the data were processed

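Per the series' design text, the authors selected the genes of the table from the output of SAM and GeneTraffic. For each gene the deposited columns are, per the file headers, a mean log2 ratio, its SD on the log2 scale, a coefficient of variation (a ratio) and a number of valid spots. How the authors corrected background, normalized and set thresholds is not given in the sources used. A further deposited table holds 1 score per spot and array, of unstated scale, centring and direction, with spots unnamed. It was used for facts of whole arrays alone, so the planned limma fit over genes could not be made. Over all spots of an array, odd-numbered spots correlated with the next spot in number at 0.31 to 0.55. Even-numbered spots correlated with the next at 0.18 to 0.30. One array, biological replicate 1, has Cy5 as the dye of both channels in its labels, so its dye orientation is not settled. The file spells the driver NP2160 and the labels NP2610.

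Identifiers were matched to RefSeq (Release 6) by locus tag (227 genes) or a unique older identifier (13), and 4 kept the file's name. All cuticle genes with a value are named, with every gene of their clusters, and all listed genes found. Members and lists were chosen with earlier results of these data known. The code for counts and comparisons of SDs was run on made-up values with known answers. That checks the code alone, since spot noise, selection and replicates were not simulated. Python 3.11.15, pandas 2.3.3, numpy 2.4.6 and matplotlib 3.10.9 were used.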

Additional observations from a re-analysis of the deposited data

How the results depend on the processing

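The values of single genes and the differences within clusters have 1 source each, so no alternative could be run for them. Not run, because the spots of the array values are unnamed, were the fits over all genes, their alternatives in centring, filters, probes, dye and direction, and leaving out a replicate. No paired analysis was possible because the gene values are pooled over all arrays. The split of 6 higher and 4 lower became 4 and 3 with at least 8 valid spots, 4 and 3 among genes of at least 1 in log2 size, and 5 and 4 without the pseudogene, a choice made after seeing the data. With a coefficient of variation under 0.5 it became 2 and 3, as 5 of the 10 genes, 4 of them higher, were left out. The median then went from 0.73 to -0.66, the ratio of TwdlT. No selected ratio lies between -0.65 and 0.59, so a small change in the split can carry the median across that gap. It is not read as a reversal. The share of higher genes over the whole list of 244 was 76.6%, and 75.7%, 83.2% and 78.8% under the limits on spots, size and coefficient of variation. Reading the ratio the other way, also chosen later, gives 4 higher and 6 lower and a median of -0.73. Between 6 and 8 spots per gene limit the precision of each mean.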
